A study of Mus musculus with 2 samples.

Results

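Melanocytes of the hair follicle were examined in dorsal mouse skin with and without testosterone propionate (TP). They were selected on measured values: a barcode needed a unique molecular identifier (UMI) of at least 3 of the 6 genes Dct, Tyrp1, Pmel, Tyr, Mlana and Mitf. The first 5 of these also had to reach 20 UMIs per 10000 UMIs of the cell. The rule found 561 melanocytes among 42244 kept barcodes in Con and 199 among 20045 in TP, 760 of 62289 in all. Kept barcodes held 200 to 8000 genes and at most 10% mitochondrial UMIs.

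The study profiled whole dorsal skin of a mouse model of androgenetic alopecia by droplet single-cell RNA sequencing. Con was the vehicle control, and TP received 0.5 mg of testosterone propionate daily under the skin. All mice were male C3H/HeN, shaved at 7 weeks of age and sampled at 9 weeks, and the skin of 15 mice per group was pooled into 1 library. Mice that also received an antibody are not analysed here. With 1 pool per group, differences between Con and TP lack replicates, so none was tested. Each value is therefore given for both libraries, and the range after a value is its 95% interval for counting error only. The deposited libraries held 130999979 UMIs in Con and 166929585 in TP. Kept barcodes had medians of 2162 and 5166 UMIs.

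Follicle melanocytes derive from the neural crest and sit above the dermal papilla of the growing follicle. They make melanin in melanosomes and pass these to the keratinocytes of the hair shaft. The pool of the bulb is rebuilt from stem cells with each growth phase and is lost when the follicle regresses, so melanocytes are tied to the hair cycle. In mice with an agouti coat, such as C3H, the bulb cells alternate between black eumelanin and yellow pheomelanin under Mc1r and its antagonist, the agouti protein.

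The label was set beside 8 melanocyte genes that the rule did not use. All 8, namely Kit, Sox10, Slc45a2, Oca2, Gpr143, Mc1r, Slc24a5 and Trpm1, were higher in the selected cells than in all other kept cells of the same library. In Con, Sox10, the neural crest factor upstream of Mitf, stood at 239 UMIs per 1000000 UMIs (CPM) in melanocytes and 0.901 in other cells. Oca2, a chloride channel protein of the melanosome, stood at 3277 against 14.1 CPM. These are sums over all members. In the 187 Con members of lowest pigment level, all 8 were still higher than in other cells, with Sox10 at 55.9 CPM. There Krt25, of the inner root sheath, stood at 1395 CPM and Corin, of the dermal papilla, at 295 CPM. All other cells of Con held 1495 and 328 CPM. In the 34 TP members of lowest level Corin stood at 12.7 CPM, beside 99.7 in other cells. The members of lowest level held 34.3% of the melanocyte UMIs in Con and 17.2% in TP. Melanocyte RNA chose the members, so higher levels of the 8 genes are a description. They do not tell single cells from mixed barcodes. The part of RNA from other cells in these members was not tested. No melanocyte met the marker rules set for Schwann, immune or endothelial cells, and Scn7a of Schwann cells had no UMI in either library. With 0 counts, up to 3 counts or 1.80 CPM in Con and 2.19 CPM in TP would be allowed.

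Among genes outside the rule, 15 with at least 200 melanocyte UMIs stood furthest above the other cells of Con. Fstl4, a follistatin-like protein, led with 322 times the level of other cells. Sox10 followed with 265 times, Oca2 with 232 times and Pax3, a neural crest transcription factor, with 218 times. Slc24a4, an ion exchanger linked to hair colour, reached 198 times. Sorcs1, Atp6v0d2, Wdr95, Gpr143, Irf4, Slc45a2, Chsy3, Prune2, Slc24a5 and Trpm1 lay between 177 and 122 times. Since the same cells' genes chose the members, these ratios are a description.

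Mitf, the main transcription factor of the lineage, binds the letters CATGTG or CACGTG, and in pigment genes often the longer TCATGTG. These letters were searched on both strands of RefSeq promoters (GRCm38.p6, 250 bases before to 50 after the start). A TCATGTG match always contains a CATGTG match. Of 14 melanocyte markers, 9 had a promoter in the table, and 6 of the 9 genes held TCATGTG: Dct, Tyrp1, Tyr, Mc1r, Slc24a5 and Trpm1. Over all 32851 promoters, 3.77% held TCATGTG, 14.2% CATGTG and 7.15% CACGTG. These shares count promoters, while the 6 of 9 counts genes. The promoters of the 3 pigment enzymes of the rule and of Oca2, on which the results turn, are printed 5′ to 3′ along the gene, with matches on either strand in capitals.
Dct, chr14:118052197-118052496, minus strand: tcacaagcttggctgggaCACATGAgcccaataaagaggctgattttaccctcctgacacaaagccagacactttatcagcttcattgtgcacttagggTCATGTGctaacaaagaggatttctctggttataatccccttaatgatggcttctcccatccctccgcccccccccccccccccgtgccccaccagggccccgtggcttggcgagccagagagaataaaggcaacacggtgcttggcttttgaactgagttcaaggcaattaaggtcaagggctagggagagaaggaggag
Tyrp1, chr4:80833963-80834262, plus strand: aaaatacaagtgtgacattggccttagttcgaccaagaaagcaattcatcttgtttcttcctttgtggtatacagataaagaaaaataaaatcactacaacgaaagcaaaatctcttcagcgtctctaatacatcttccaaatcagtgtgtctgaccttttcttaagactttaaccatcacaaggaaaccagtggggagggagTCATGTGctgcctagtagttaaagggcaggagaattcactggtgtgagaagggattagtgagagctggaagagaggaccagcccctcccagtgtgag
Tyr, chr7:87493463-87493762, minus strand: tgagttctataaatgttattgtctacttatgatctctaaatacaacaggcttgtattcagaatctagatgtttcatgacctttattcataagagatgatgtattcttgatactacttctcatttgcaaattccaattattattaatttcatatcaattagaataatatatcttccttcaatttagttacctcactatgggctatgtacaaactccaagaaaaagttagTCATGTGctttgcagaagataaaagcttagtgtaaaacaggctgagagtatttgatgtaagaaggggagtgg
Oca2, chr7:56239509-56239808, plus strand: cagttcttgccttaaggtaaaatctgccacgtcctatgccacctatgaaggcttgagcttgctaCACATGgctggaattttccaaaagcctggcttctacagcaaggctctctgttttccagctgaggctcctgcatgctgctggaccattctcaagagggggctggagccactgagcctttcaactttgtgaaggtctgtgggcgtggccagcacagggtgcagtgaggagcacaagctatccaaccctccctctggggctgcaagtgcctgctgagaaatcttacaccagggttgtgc
The Dct promoter held TCATGTG from base -151 and, on the other strand, from base -232, counted from the start of transcription. Tyrp1 held it from base -47 and Tyr from base -22. In Oca2 only the shorter CATGTG was found, from base -186 on the other strand. A match of letters does not show binding.

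Melanocytes made up 1.33% (1.22 to 1.44) of the kept barcodes of Con and 0.993% (0.860 to 1.14) of those of TP. The TP share was 0.748 times the Con share (0.633 to 0.880). Only 3 of the 6 markers were found in 27.8% of Con and 17.1% of TP members, so a rule of at least 4 markers would raise this ratio. Against the cells that met a rule for hair matrix and cortex, which line the same bulb, the order turned: there were 13.2 melanocytes per 100 such cells in Con and 24.0 in TP, a ratio of 1.82 (1.54 to 2.15). The matrix and cortex cells themselves numbered 4259 in Con and 829 in TP. Just below the pigment threshold, between 15 and 20 UMIs per 10000, lay 57 further barcodes with 3 markers in Con and 8 in TP. Just above it, between 20 and 25, lay 46 and 6 members. A further 425 barcodes in Con and 15 in TP reached 20 UMIs per 10000 with fewer than 3 markers, at medians of 803 and 948 UMIs per barcode.

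The selected cells differed in depth and in purity between libraries. Melanocytes held a median of 1994 UMIs in Con and 3019 in TP, with highest values of 21761 and 51664. In Con 63 melanocytes (11.2%) also met the rule of another cell class, most often hair matrix and cortex (31 cells) or dermal papilla (28 cells). In TP this held for 9 (4.52%), most often by the basal epidermis rule (5 cells, as in Con). There 2 met the matrix rule, 2 the fibroblast rule and 1 the dermal papilla rule, and a cell could meet several rules. A doublet search modelled on the study's removed 38 melanocytes of Con (6.77%) and 33 of TP (16.6%). The melanocytes removed had medians of 4214 UMIs in Con and 2253 in TP, and those left 1925 and 3294. All barcodes removed had medians of 4500 and 10548. In TP the search thus took the shallower melanocytes, which limits what its removal can show. The libraries shared 303 barcode sequences, and no melanocyte barcode was among them.

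**Figure D1:**
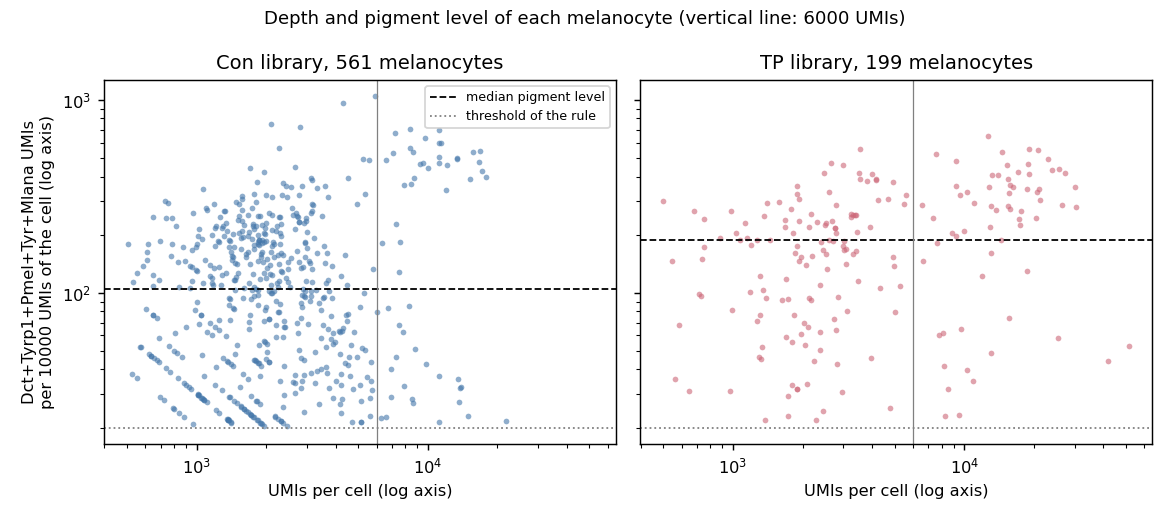
Each point is 1 melanocyte, with its UMIs on the x axis and its summed Dct, Tyrp1, Pmel, Tyr and Mlana UMIs per 10000 on the y axis (both log), Con left and TP right. The dashed lines mark the medians of 105 and 188 per 10000, and cells right of the vertical line at 6000 UMIs number 55 of 561 in Con and 66 of 199 in TP.

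The levels of the genes that chose the cells are given as a description, since the rule fixes that the melanocytes carry them. The summed level of the 5 pigment genes was 1.36 times as high in TP over all melanocytes and 0.940 times in those of at least 6000 UMIs. Each cell's sum of the 5 pigment genes had a median of 105 UMIs per 10000 in Con and 188 in TP. All 6 rule genes were detected in 22.8% of the Con melanocytes and 48.7% of those of TP. Dct, which converts dopachrome on the way to eumelanin, stood at 9167 CPM in Con and 11737 in TP, 1.28 times as high (1.25 to 1.31). Tyrp1, the next enzyme of that path, stood at 2358 and 2800 CPM. Both sat within 30% of their Con level. Pmel, whose fibrils form the scaffold on which melanin settles, stood at 2951 and 5527 CPM, 1.87 times as high (1.81 to 1.94). Mlana, a melanosome protein that works with Pmel, stood at 2221 and 4141 CPM. Tyr, the rate-limiting enzyme of melanin synthesis, went the other way, with 2390 CPM in Con and 1741 in TP, 0.728 times as high (0.692 to 0.767), but not at every depth.

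Part of these differences moved with depth. Melanocytes of at least 6000 UMIs held 34.4% of the melanocyte UMIs in Con and 77.0% in TP. Within those deep cells Mlana stood at 5104 CPM in Con and 5123 in TP. Its ratio was 0.749 below 1500 UMIs, 2.66 from 1500 to 3000 and 0.648 (0.512 to 0.812) from 3000 to 6000, against 1.86 in all melanocytes. The Tyr ratio in the same 3 classes was 1.19, 0.438 and 1.12, so its direction turned in the lowest and in the class from 3000 to 6000. In the deep cells the TP over Con ratio was 1.07 for Pmel, 0.916 for Dct, 0.770 for Tyrp1 and 0.879 for Tyr. Mitf kept its direction, at 1.34 times in all melanocytes and 1.38 times in the deep ones.

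Genes of melanosome ion transport, which the rule did not use, were uneven between libraries. Of the 8 genes of this list 7 had at least 50 UMIs, and in TP 1 was higher and 3 were lower by 2-fold or more. Over all 8106 genes with at least 50 UMIs, 4.59% were higher and 10.1% lower by that much, shares that move with the scaling. Oca2 (chr7:56239593-56536518), which keeps the melanosome from turning acidic, was found at 3277 CPM in Con and 1342 in TP, 0.410 times as high (0.388 to 0.432). It had a UMI in 449 of 561 Con melanocytes and in 91 of 199 of TP. Slc24a4, a potassium-dependent sodium and calcium exchanger, stood at 2226 and 630 CPM, 0.283 times as high (0.262 to 0.305). Atp7a, the pump that supplies copper to tyrosinase, stood at 131 and 59.97 CPM, at about the level of the other cells of Con (123 CPM).

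Oca2 and Slc24a4 kept their direction at every depth. Below 1500 UMIs, from 1500 to 3000, from 3000 to 6000 and at 6000 or more, the Oca2 ratio was 0.713, 0.228, 0.896 and 0.528. That of Slc24a4 was 0.529, 0.204, 0.809 and 0.357. The interval from 3000 to 6000 UMIs reached 1.01 for Oca2. Other transporters differed from them. Slc45a2, a transporter that also acts on melanosome pH, stood at 364 and 600 CPM, 1.65 times as high, but at 0.93 times in cells below 6000 UMIs. Slc24a5, an exchanger of the same family that is needed for dark pigment, stood at 868 and 1039 CPM, and its ratio of 1.20 was 0.898 when each cell counted equally. Slc7a11, which imports cystine for pheomelanin, had 43 UMIs in Con and 149 in TP, or 25.8 and 109 CPM, in 29 and 22 cells.

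**Figure D2:**
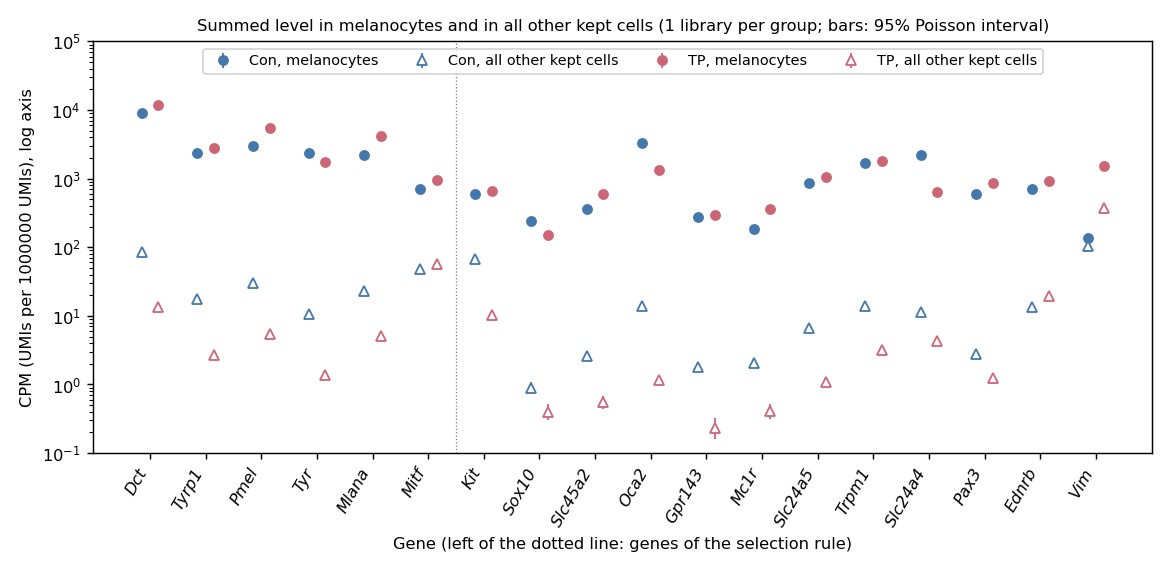
Points give the summed level of each gene in CPM (log axis) in melanocytes (filled) and in all other kept cells (open) of Con (blue) and TP (red), with 95% Poisson intervals. The 6 genes left of the dotted line chose the cells, Oca2 and Slc24a4 lie lower in TP than in Con, and Vim lies at 138 CPM in Con and 1540 CPM in TP melanocytes.

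Of 6 structural and membrane proteins of the melanosome, 1 was at least 2-fold higher, beside 4.59% of all genes, and none at least 2-fold lower, beside 10.1%. That gene was Cd63, a tetraspanin that sorts Pmel into fibrils, with 1163 CPM in Con and 2681 in TP, 2.31 times as high (2.18 to 2.44) in all and 1.16 times in cells of at least 6000 UMIs. Gpnmb, a relative of Pmel, stood at 960 and 1178 CPM. Trpm1, a cation channel, stood at 1709 and 1829 CPM, but its ratio was 0.702 below 6000 UMIs and 0.885 at or above it. Gpr143, a receptor in the melanosome membrane, stood at 273 and 298 CPM with an interval of the ratio from 0.955 to 1.25.

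The machinery that builds and moves melanosomes showed no gene past 2-fold, beside 4.59% of all genes higher and 10.1% lower by that much. Of 24 genes of this machinery 21 had at least 50 UMIs, and their median log2 ratio was -0.07, beside -0.16 over all genes. Myo5a, the motor that holds melanosomes at the cell edge, stood at 1182 and 1033 CPM. Its partners Mlph and Rab27a stood at 225 and 309 CPM and at 145 and 190 CPM. Rab38, which sorts Tyr and Tyrp1 to the melanosome, stood at 537 and 349 CPM, 0.650 times as high (0.581 to 0.727). Lyst, mutated in beige mice, stood at 528 and 361 CPM.

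Transcription factors of the lineage split. Of 20 such genes 15 had at least 50 UMIs, and 1 was at least 2-fold higher and 4 at least 2-fold lower, beside 4.59% and 10.1% of all genes. Pax3 stood at 605 and 872 CPM, 1.44 times as high (1.32 to 1.57). Sox10 stood at 239 and 151 CPM, 0.634 times as high (0.534 to 0.752). Both are upstream of Mitf. Their opposite directions hold for the sums over all melanocytes, and Sox10 was at 1.38 times (0.879 to 2.12) in cells of 3000 to 6000 UMIs. Irf4, which acts with Mitf on Tyr, stood at 180 and 84.1 CPM, 0.468 times as high (0.374 to 0.582). Its ratio was 0.153 from 1500 to 3000 UMIs and 1.125 (0.681 to 1.80) from 3000 to 6000. Ets1, a neural crest factor, had 54.0 and 160 CPM, 2.97 times as high (2.31 to 3.84). Sox5, a modulator of Sox10, stood at 975 and 306 CPM, Lef1, an effector of Wnt signalling, at 664 and 202 CPM, and Msx2 at 32.4 and 5.12 CPM. Sox5 stood at 833 and 414 CPM and Lef1 at 723 and 282 CPM in the other cells of Con and TP, so neither was particular to melanocytes, and the part of free RNA in their levels was not tested.

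Receptors of follicle melanocytes were mixed, with a median log2 ratio of -0.51 over 13 genes. Kit, whose ligand guides and keeps melanocytes in the follicle, stood at 594 and 655 CPM. Ednrb, the endothelin receptor, stood at 716 and 925 CPM, 1.29 times as high (1.19 to 1.40) in all and 0.842 times (0.765 to 0.928) in cells of at least 6000 UMIs. Met, the receptor of hepatocyte growth factor, stood at 674 and 439 CPM. Of 13 receptors with at least 50 UMIs, 3 were at least 2-fold lower, beside 10.1% of all genes, and none at least 2-fold higher, and the 3 (Notch1, Notch2 and Fgfr2) lay below the other cells in both libraries. Cxcr4, a receptor of Cxcl12, had 0 UMIs in Con and 5 in TP, and Cxcl12 had 8 and 4. Ackr3, another receptor of Cxcl12, had 32 and 6 UMIs.

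Mc1r, the receptor that sets the pigment type, stood at 186 CPM in Con and 366 in TP, 1.97 times as high (1.70 to 2.27). In cells below 6000 UMIs its ratio was 0.904. Atrn and Mgrn1, which act with agouti on Mc1r, stood at 163 and 118 CPM and at 70.2 and 57.8 CPM. The agouti gene itself (listed under its symbol a) was highest in cells of the dermal papilla rule, at 1179 CPM in Con and 2123 in TP, and stood at 80.3 and 11.7 CPM in melanocytes.

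Ligands for these receptors were higher in other cell classes. Edn3, the endothelin of the follicle, stood at 673 CPM in Con and 666 in TP in cells of the dermal papilla rule, and at 781 and 65.2 CPM in cells of the fibroblast rule. Kitl, the Kit ligand, stood at 196 and 491 CPM in hair matrix and cortex cells and at 557 and 283 CPM in endothelial cells. In melanocytes Edn3 had 66.6 CPM in Con and 2.19 in TP (3 UMIs), and of 6 ligands with at least 50 UMIs 4 were at least 2-fold lower, beside 10.1% of all genes. All 6 lay below the other cells in both libraries, as did Corin (130 and 2.93 CPM), a dermal papilla gene, and Krt25 (955 and 84.1 CPM), a keratin of the inner root sheath. In all other cells Corin stood at 328 and 99.7 CPM and Krt25 at 1495 and 512 CPM. The part of RNA from neighbouring cells in the ligand levels was not tested.

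Melanocytes of Con and TP differed in the share of cells that showed Oca2 or Vim. Vim encodes vimentin, the intermediate filament of cells of mesenchymal and neural crest origin. The pair was chosen after the values were seen. Every cell was thinned to 1000 UMIs for this, which left 494 melanocytes of Con and 184 of TP and left out 67 and 15. Oca2 without Vim was seen in 338 Con cells, 68.4% (64.1 to 72.5), and in 45 TP cells, 24.5% (18.4 to 31.3). Vim without Oca2 was seen in 13 Con cells, 2.63% (1.41 to 4.46), and in 87 TP cells, 47.3% (39.9 to 54.8). Thus most thinned Con cells showed Oca2 without Vim, and Vim without Oca2 was the largest group in TP. No UMI after thinning is not absence: before thinning, 35.6% of the TP cells with Oca2 without Vim had a Vim UMI, and 23.1% of Con and 14.9% of TP cells with Vim without Oca2 had an Oca2 UMI. Both were seen in 6.07% and 9.24%, and neither in 22.9% and 19.0%.

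The ratio of shares, TP over Con, was 0.357 (0.256 to 0.489) for Oca2 without Vim and 18.0 (9.98 to 35.1) for Vim without Oca2. Without cells called doublets it was 0.356 and 18.3. Without cells that met another class rule it was 0.302 and 21.8, and in cells of at least 6000 UMIs 0.259 for Oca2 without Vim. Vim without Oca2 was seen there in 1 of 55 Con cells and 22 of 66 TP cells. As a background, after the same thinning Oca2 was seen in 0.934% of Con and 0.121% of TP hair matrix and cortex cells, and Vim in 2.42% and 2.66%. Any Vim was seen in 8.70% (6.37 to 11.5) of the thinned Con melanocytes and 56.5% (49.0 to 63.8) of those of TP, above that background in both libraries. Vim is not particular to melanocytes, and was seen in 68.4% and 63.2% of immune cells. Dct, a gene of the rule, was seen after the same thinning in 9.3% of Con and 3.3% of TP matrix and cortex cells. In immune cells Dct was seen in 10.1% and 1.3%. The part of such stray pigment RNA in the choice of members was not tested. Median depths before thinning were 2203 and 3294 UMIs in melanocytes and 2788 and 6142 in matrix and cortex cells. Unthinned, Vim had a UMI in 14.1% of Con and 70.9% of TP melanocytes, and Oca2 in 80.04% and 45.7%.

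**Figure D3:**
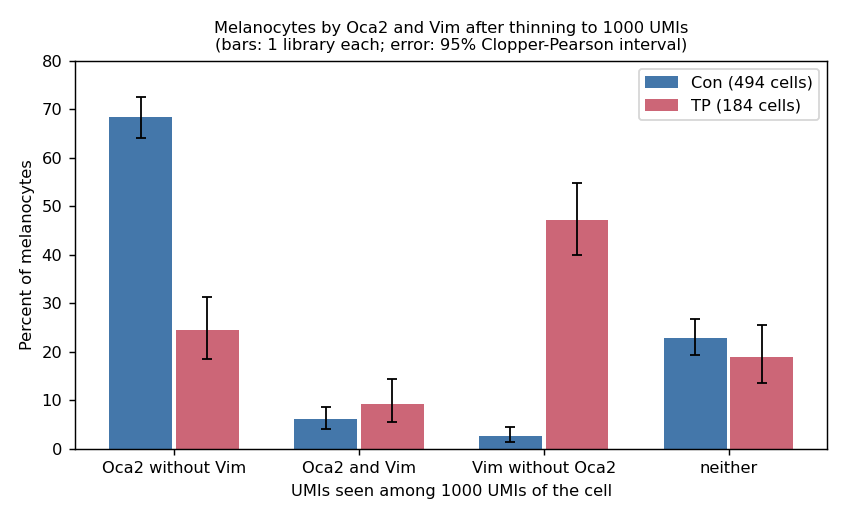
Bars give the percent of melanocytes, thinned to 1000 UMIs each, that showed Oca2, Vim, both or neither, for Con (494 cells) and TP (184 cells), with 95% Clopper-Pearson intervals. Oca2 without Vim stands at 68.4% in Con and 24.5% in TP, and Vim without Oca2 stands at 2.63% and 47.3%.

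Among the cells of TP, melanocyte genes outside the rule were uneven between both sides of the split. Gpr143 stood at 442 CPM in cells with Oca2 without Vim and 154 CPM in cells with Vim without Oca2, Trpm1 at 2429 and 1055 CPM, Slc24a5 at 1419 and 617 CPM and Slc45a2 at 712 and 512 CPM. Sox10 stood at 134 and 206 CPM. Malat1, a nuclear RNA, stood at 10271 and 16242 CPM and Fos at 742 and 2374 CPM, both higher in the cells with Vim, and their part in the split was not tested. Of the genes that chose the cells, Dct stood at 12631 CPM in cells with Oca2 without Vim and at 11527 CPM in cells with Vim without Oca2. Mitf, also of the rule, stood at 829 and 1195 CPM. Outside the rule, Kit at 425 and 889 CPM and Pax3 at 519 and 1410 CPM were higher in the cells with Vim. Tyrp1, Tyr and Mlana, all of the rule, were lower there, with 3545 and 1794 CPM, 2175 and 1244 CPM, and 5168 and 2937 CPM. The median depth of the TP cells was 3430 UMIs with Oca2 without Vim and 2779 UMIs with Vim without Oca2. The sums rest on 425684 UMIs of 45 cells and 427587 UMIs of 87 cells, so those with Oca2 rest on deeper cells. The part of depth in these differences was not tested. In the 13 Con cells with Vim without Oca2, Dct stood at 11093 CPM, Tyr at 720 CPM and Tyrp1 at 807 CPM. In the Con cells with Oca2 without Vim these genes stood at 9937, 2987 and 2614 CPM. Not all genes kept their TP side in Con. From the cells with Oca2 to those with Vim, Mitf stood at 831 and 547.5 CPM and Sox10 at 291 and 144 CPM. Both intervals of the ratio included 1. Mlana stood at 2235 and 2161 CPM, Kit at 705 and 749 CPM and Pax3 at 726 and 951 CPM.

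Further genes went with this split, named by a rule of size set after the values were seen. Slc24a4 had a UMI in 91.1% of TP cells with Oca2 without Vim and in 16.1% of those with Vim without Oca2. In Con the same shares were 96.4% and 23.1%. Met and Rab38 lay on the same side, with a UMI in 91.1% and 25.3% and in 77.8% and 21.8% of the TP cells. Col12a1, a collagen that sits on collagen fibrils, lay on the side of Vim. It had a UMI in 26.7% of TP cells with Oca2 without Vim and 89.7% of those with Vim without Oca2, and in 2.66% and 61.5% in Con. Pcolce2, which helps to trim procollagens, was seen in 20% and 66.7% in TP, and Mylk, a kinase of myosin, in 4.44% and 54.0%. In all other kept cells Pcolce2 was also 9.93 times as high in TP as in Con. Csmd1, a large membrane protein with complement control domains, was seen in 2.22% and 54.0%. The 10 genes of each side were chosen in TP, and all 20 lay on the same side by summed level in Con, where the cells with Vim without Oca2 number 13. The Con intervals of Mylk, Adcy2, S100a6, Eps8 and Sbsn included a ratio of 1.

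**Figure D4:**
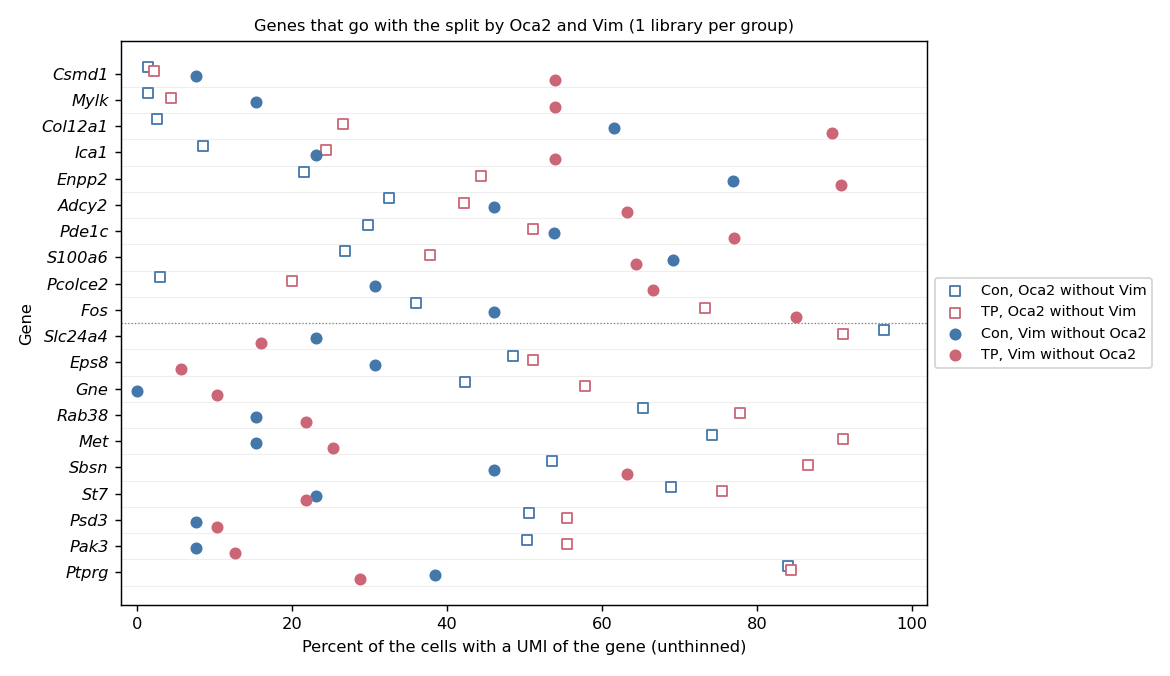
Points give the percent of cells with a UMI of each gene (not thinned) among melanocytes with Oca2 without Vim (squares) and with Vim without Oca2 (circles), in Con (blue) and TP (red). The 10 genes above the dotted line were more often seen in the cells with Vim and the 10 below it in the cells with Oca2, in both libraries.

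Inside the cells with Oca2 without Vim, which Oca2 itself chose, some differences between libraries had the direction seen in all melanocytes and some did not. Slc24a4 was 0.474 times (0.433 to 0.517) and Sox10 0.460 times (0.34 to 0.611). Pmel was 2.25 times as high (2.14 to 2.37), Mlana 2.31 times (2.18 to 2.45) and Mc1r 2.12 times (1.72 to 2.62). These sums were not matched for depth, with 1070723 UMIs over 338 Con cells and 425684 over 45 TP cells. Among all melanocytes of at least 6000 UMIs the ratio was 1.07 for Pmel, 1.00 for Mlana and 1.25 for Mc1r. In contrast Pax3 was 0.715 times as high (0.613 to 0.832) and Kit 0.603 times (0.510 to 0.710), against 1.44 and 1.10 times in all melanocytes. Mitf stood at 0.998 times (0.879 to 1.13), against 1.34. Inside the cells with Vim without Oca2, of which Con had 13, Pax3 was 1.48 times as high (1.05 to 2.17), Kit 1.19 times (0.797 to 1.84), Mitf 2.18 times (1.38 to 3.66), Sox10 1.43 times (0.59 to 4.51) and Tyr 1.73 times (1.16 to 2.69).

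Melanocytes varied widely in pigment level within each library. Cut at 59.1 and 160 UMIs per 10000, Con had 187 cells in each of 3 parts and TP had 34, 49 and 116. Mlana stood at 189, 188 and 5332 CPM from the lower to the upper part in Con, and Cd63, outside the rule, at 131, 140 and 2735 CPM. Mlana is part of the sum that sorted the cells, so its order is in part set by the sorting. Mc1r, outside the rule like Cd63, stood at 21.0 CPM in the lower and 396 CPM in the upper part. Oca2 stood at 1181, 3914 and 4673 CPM in the 3 parts of Con and at 250.4, 1299 and 1622 CPM in those of TP. Vim was low in all 3 parts of Con, at 83.9, 71.1 and 229 CPM, and high in all 3 of TP, at 998, 2496 and 1489 CPM. Krt25 was highest in the lower part of Con, at 1395 CPM against 517 in the upper one, as was Corin with 295 and 39.4 CPM.

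Outside the pigment program, genes of respiration, oxidative stress, the immediate early response and antigen presentation had median ratios above that of all genes. The 11 genes of the respiratory chain had a median log2 ratio of 0.57, and 1 was at least 2-fold higher, beside 4.59% of all genes. Cox4i1, a subunit of cytochrome oxidase, stood at 588 and 1136 CPM. Prdx1, a peroxidase, led 12 oxidative stress genes with 459 and 1241 CPM. Of these 12 genes 3 were at least 2-fold higher and none at least 2-fold lower. Among 15 immediate early genes Fos stood at 478 and 1262 CPM, and 3 were at least 2-fold higher. The Fos ratio was 12.3 below 1500 UMIs and 1.09 (0.97 to 1.24) in cells of at least 6000 UMIs. In all other cells 14 of the 15 were at least 2-fold higher, with a median log2 ratio of 1.56 against 0.76 in melanocytes. B2m, the light chain of MHC class I, stood at 351 and 838 CPM, and 3 of 6 class I genes were at least 2-fold higher, as were 4 of the 6 in other cells. The B2m ratio was 5.598 from 1500 to 3000 UMIs and 1.29 at 6000 or more. In the 4 interferon response genes with at least 50 UMIs none passed 2-fold, too few genes to read against 4.59% higher and 10.1% lower over all genes. Less the median of genes of like length, the medians were 0.28 for respiration, 0.31 for oxidative stress, 0.28 for immediate early genes and 0.48 for class I genes.

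Genes of survival and of steroid response were mixed. Bcl2, a survival gene under Mitf, stood at 187 and 317 CPM, 1.70 times as high (1.47 to 1.97). Bax, which promotes cell death, stood at 85.7 and 158 CPM, 1.84 times as high (1.49 to 2.29). None of 8 genes of the survival list passed 2-fold, too few genes to read against 4.59% higher and 10.1% lower over all genes. Zbtb16, a target of steroid receptors, had 18 UMIs in Con and 84 in TP, or 10.8 and 61.4 CPM, of which 27.4% came from 1 TP cell. Fkbp5, another such target, stood at 22.2 and 16.1 CPM, with an interval of the ratio from 0.408 to 1.26. The median of 7 steroid response genes was -0.34 on the log2 scale.

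The cell cycle list gave opposite answers by depth. Over summed UMIs the median log2 ratio of its 20 genes was 0.54. Of these 5 were at least 2-fold higher, beside 4.59% of all genes, and none at least 2-fold lower, beside 10.1%. Among the higher ones were Mcm3 with 31.8 and 73.1 CPM and Pcna with 74.3 and 151 CPM. Mki67, a marker of dividing cells, stood at 426 and 272 CPM. With each cell weighted equally the median was -0.62, after thinning to 1000 UMIs it was -0.42, and in cells below 6000 UMIs it was -1.39. After thinning, Mki67 was seen in 32.6% (28.5 to 36.9) of Con melanocytes and 14.7% (9.90 to 20.6) of TP melanocytes. In immune cells, thinned alike, it was seen in 25.7% and 8.48%, so no share of dividing melanocytes is read from it.

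Lysosomal genes, adhesion genes and heat shock genes held no gene past 2-fold among 16, 7 and 9 measured. Over all genes 4.59% were higher and 10.1% lower by that much, so with so few genes no result is read from this. The median log2 ratios of these lists, in the same order, were 0.20, 0.18 and 0.46. Cdh3, which holds follicle melanocytes to keratinocytes, stood at 278 and 332 CPM. Hspa8, a chaperone, stood at 523 and 1028 CPM. Among glial and neural crest genes, Fabp7, found in early glia and melanoblasts, stood at 61.8 and 121 CPM in 37 and 47 cells, and Ncam1 at 238 and 131 CPM. Mbp had 8 UMIs in each library.

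**Figure D5:**
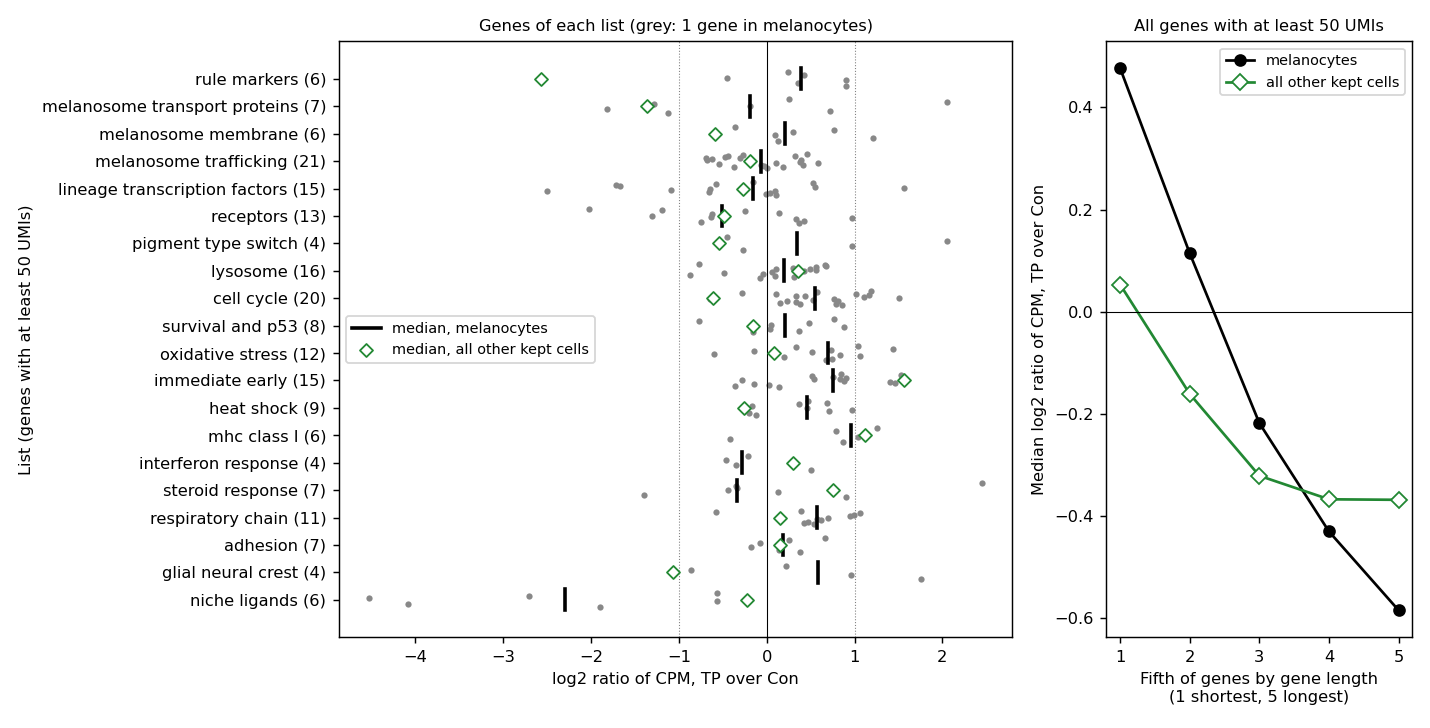
Left, each grey point is the log2 ratio of CPM, TP over Con, of 1 gene in melanocytes, with the median of its list as a black bar and the median in all other kept cells as a green diamond. Right, the median log2 ratio over genes grouped by length falls from 0.48 for the shortest 1599 genes to -0.58 for the longest 1598 in melanocytes, and from 0.05 to -0.37 in other cells.

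Of the 8106 genes, 372 passed 2-fold upward in TP and 820 downward, with a median log2 ratio of -0.16. With edgeR's factor the counts were 670 and 551, with DESeq2's 668 and 551, and after thinning 871 and 983, so the balance of both directions depends on the scaling. The ratio went with gene length. In the 1599 shortest genes (0.394 to 10.2 kb) 12.3% were at least 2-fold higher and 3.50% lower, and in the 1598 longest (91.5 to 2390 kb) 2.00% were higher and 23% lower. Relative to genes of their own length, Oca2, of 297 kb, lay lower by a log2 value of -0.70 and Slc24a4 by -1.24, in place of -1.29 and -1.82. Vim, of 8.52 kb, lay higher by 2.999 in place of 3.48. Malat1, an RNA that stays in the nucleus, stood at 17903 and 13415 CPM in melanocytes and at 18570 and 18526 CPM in other cells. By depth its ratio in melanocytes was 2.17, 1.21 and 1.23 in the 3 classes below 6000 UMIs and 0.707 at 6000 or more. The part of RNA from nuclei in these differences was not tested.

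The 10 largest increases were taken among genes with at least 100 UMIs and a level at or above that of other cells in the library where they were higher. That 1 library was enough: Csmd1, Myh11, Tagln and Acta2 lay at 0.241 to 0.320 times the other cells in Con and Mylk at 0.921 times. They included both shared and single-cell signals. Col12a1 had 29 UMIs in 23 Con cells and 351 in 119 TP cells, or 17.4 and 257 CPM. Vim (chr2:13574311-13582826) had 230 UMIs in 79 cells and 2106 in 141 cells, 11.2 times as high (9.74 to 12.8), while in other cells it was 3.51 times as high. By depth the Vim ratio was 11.2 below 1500 UMIs, 33.4 from 1500 to 3000, 40.6 from 3000 to 6000 and 5.08 at 6000 or more. Csmd1 had 18 and 239 UMIs, 16.2 times as high (10.0 to 27.8), beside 0.690 times in other cells. In cells of at least 6000 UMIs the Csmd1 ratio was 1.52 (0.719 to 3.52). Pcolce2, Pde11a, a phosphodiesterase, Mylk and Gucy1b1, a subunit of guanylate cyclase, were 10.3, 11.5, 9.11 and 7.93 times as high, each in at least 51 TP cells. In other cells the same genes, in this order, were 9.93, 0.730, 2.12 and 1.56 times as high. The size of the Pcolce2 increase was thus not particular to melanocytes. In contrast Myh11, Tagln and Acta2, genes of the contractile apparatus of smooth muscle, owed 96.9%, 94.1% and 96.5% of their TP UMIs to 1 cell.

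The 10 largest decreases were Krtap8-1, Nmnat2, Krtap7-1, Krt31, Hs6st3, Gpr158, Mybpc1, Itgb3, Pitpnc1 and Pgm2l1. The first 4 and Pitpnc1 lay below the other cells in TP, at 0.120 to 0.810 times. In other cells the ratios of the 10, in the order named, were 0.52, 0.89, 0.51, 0.50, 0.76, 0.40, 0.73, 2.08, 0.42 and 0.43. Apart from Itgb3, the decreases thus had the same direction in other cells. Hs6st3, which modifies heparan sulfate, had 603 UMIs in 252 Con cells and 95 in 37 TP cells, 0.192 times as high (0.153 to 0.239). By depth its ratio was 0.639 (0.308 to 1.20) below 1500 UMIs and 0.136 from 1500 to 3000. From 3000 to 6000 UMIs it was 0.759 (0.491 to 1.14) and at 6000 or more 0.263. Gpr158, an orphan receptor, had 167 and 28 UMIs and stood at 173 times the level of other cells in Con. Its TP over Con ratio was 0.860 (0.361 to 1.84) in cells of 3000 to 6000 UMIs. Mybpc1, a myosin-binding protein, and Itgb3, an integrin subunit, were 0.214 and 0.216 times as high and also stood far above other cells in Con, by 154 and 73.7 times. Of the 29 Mybpc1 UMIs of TP, 44.8% came from 1 cell. Krtap8-1, Krtap7-1 and Krt31 are hair shaft genes, and 1 Con cell gave 58.0%, 49.1% and 67.0% of their UMIs. Without the condition on level, the 5 largest decreases were Corin, Rspo3, Fgf10, Rspo2 and Edn3, all below the other cells, with 3 or 4 UMIs each in TP, and the increases gained Abi3bp, of which 1 TP cell gave 84.2%.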

How the data were processed

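Dorsal skin of 2 groups was measured, 1 droplet library each. The authors deposited matrices of raw UMI counts per gene and barcode, and the submitters' processing notes name Cell Ranger 8.0.1 and mm10. Deposited totals were 130999979 UMIs over 45709 barcodes in Con and 166929585 over 25931 in TP. Barcodes with 200 to 8000 genes and at most 10% mitochondrial UMIs were kept, and melanocytes were taken by the marker rule. Their UMIs were summed per library and divided by the sum, as CPM. Ratios are TP over Con, and log2 ratios used a pseudocount of 1 UMI. Intervals of 95% were exact Poisson for levels, exact conditional for ratios and Clopper-Pearson for shares. They cover counting error only, and with 1 library per group no test was run. Genes with at least 50 UMIs were compared, and 2-fold was the size named. Doublets were kept, and an alternative removed the 7.5% of barcodes nearest to artificial doublets. Thinning drew 1000 UMIs per cell. Class rules used marker genes, and the hair matrix rule lacked Krt85, which was not found under that symbol.

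Named genes were those of fixed lists, the 10 largest increases and 10 largest decreases among genes with at least 100 UMIs and a level not below other cells in the library where they were higher, the 5 largest of each without that condition, and the 15 genes furthest above other cells in Con. Members, lists and rules were chosen with earlier results of these data known. The companions of Oca2 and Vim needed 100 UMIs and a UMI in 50% of the TP cells of their side. Gene positions, lengths and promoters are RefSeq GRCm38.p6, and 7990 of 8106 genes had a length. The ratio step was tested on simulated data. Python 3.11.15, numpy 2.4.6, scipy 1.17.1, pandas 2.3.3, scikit-learn 1.9.0 and matplotlib 3.10.9 were used, with size factors from edgeR 4.0.16 and DESeq2 1.42.0 in R 4.3.3 as alternatives. Some genes are not reported here.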

Additional observations from a re-analysis of the deposited data

Results flagged for a closer look

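The cell cycle list and the glial and neural crest list went in opposite directions in melanocytes and in the other cells of the same libraries. The median log2 ratio of the cell cycle list was 0.545 in melanocytes and -0.616 in all other kept cells. That of the glial and neural crest list was 0.59 in melanocytes, over 4 genes, and -1.07 in the other cells. Neither difference was tested, since each group is 1 library, and the directions depend on how cells are summed. In melanocytes the cell cycle list gave -0.62 with equal cells, -0.42 thinned and -1.39 below 6000 UMIs, and the other cells were not recomputed under these settings. The glial list gave -0.23 at 6000 UMIs or more.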

How the results depend on the processing

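Settings by depth, single cells and gene length, and those of the Oca2 and Vim shares, were chosen after seeing the data, and the causes of the shifts were not tested. The share ratio of 0.748 was 0.6005 with a pigment threshold of 10 and 1.82 per hair matrix cell. The pigment sum ratio of 1.36 was 1.53 with either size factor, 1.42 with equal cells, 1.40 thinned, 1.42 without doublets, 1.18 without cells of another class, 1.12 at a threshold of 40, 1.26 at 5% mitochondrial UMIs, 1.42 below 6000 UMIs and 0.94 at or above it. At 6000 UMIs or more the ratio was 0.916 for Dct, 0.77 for Tyrp1, 0.982 for Slc24a5, 0.885 for Trpm1 and 0.842 for Ednrb. Below it, the ratio was 0.93 for Slc45a2, 0.904 for Mc1r, 0.567 for Slc24a5 and 0.702 for Trpm1. At a threshold of 40 it was 0.981 for Tyrp1, 0.957 for Kit, 0.994 for Slc24a5 and 0.897 for Trpm1. With equal cells and thinned it was 0.898 and 0.897 for Slc24a5, and 0.903 and 0.982 for Trpm1, which gave 0.933 without cells of another class and 0.994 at 5%.

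List medians (log2) turned at 6000 UMIs or more for rule markers (-0.060), membrane (-0.051, and -0.032 at a threshold of 40), lysosome (-0.23) and glial genes (-0.23). The pigment switch gave -0.052 below 6000 UMIs. Less length, receptors gave 0.072 and heat shock -0.018. With equal cells, thinned and below 6000 UMIs, the cell cycle gave -0.62, -0.42 and -1.39 and interferon response 0.51, 0.69 and 0.69. Genes 2-fold higher numbered 670 with edgeR's and 668 with DESeq2's factors, 871 thinned, 636 below 6000 UMIs, and 590, 130 and 1962 at minimums of 20, 200 and 1 UMIs. Genes 2-fold lower numbered 475 less length, and 1259, 298 and 2845 at those minimums. Thinned to 2000 UMIs, the ratio for Oca2 without Vim was 0.216. No paired analysis was possible because each group is 1 library. Between pools, differences of mice, dissociation and hair cycle stage cannot be told apart from TP, and low-count genes carry wide counting intervals.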
